A study of Rattus norvegicus with 20 samples.

Results

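Liver expression after 440 mg/kg triphenyl phosphate was compared with liver expression after corn oil alone. The comparison used 8 of the 20 Affymetrix arrays of the study: the 3 arrays labelled 440 mg/kg and the 5 labelled 0 mg/kg. Each of 14217 genes was represented by 1 probe set, the one with the highest mean over all 20 arrays. The study gave male Harlan Sprague-Dawley rats 4 daily doses by gavage and took the left liver lobe on day 5, to follow liver transcripts over a dose range. Triphenyl phosphate is a triaryl phosphate that serves as a plasticiser and flame retardant. The 440 mg/kg group received it in corn oil, and the vehicle group received corn oil. Neighbouring groups of 3 arrays each received 220 or 881 mg/kg and were used to see where 440 mg/kg differed from them. The labels give the dose as 440 mg/kg, while the design text gives 441 mg/kg. The treatment text also describes 5 groups of 3 rats, although 6 dose groups are present and the vehicle group has 5 arrays. No label assigns an array to an animal of its own, and the p-values therefore measure how these samples vary, part of which may be technical. Neither the age of the rats nor the hour of sampling is given in the sources used here.

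The liver meets a swallowed chemical first, and its hepatocytes sense foreign compounds through nuclear receptors. CAR and PXR induce oxidising and conjugating enzymes together with export pumps, AhR induces the Cyp1 enzymes, and NRF2 answers oxidants and electrophiles with glutathione and quinone metabolism. The same cells make cholesterol, fatty acids and bile acids, burn fat under PPAR alpha, and follow a daily rhythm. In that rhythm Bmal1 with Clock or Npas2 switches on the Per, Cry and Rev-erb (Nr1d1, Nr1d2) genes and output factors such as Dbp, and the Rev-erb proteins repress Bmal1, Npas2 and Nfil3.

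At 440 mg/kg 1570 of 14217 genes (11.0%) passed an adjusted p of 0.05 in limma's moderated test against vehicle: 961 (6.76%) rose and 609 (4.28%) fell. Levels are log2 expression values, on which a difference of 1 is a factor of 2, and "rose" and "fell" are kept for genes that passed this test. Most changes were small. Only 69 genes rose and 53 fell by at least 1 on the log2 scale, whereas 593 rose and 295 fell by less than 0.5. The median change over all genes was -0.0016, and the median standard error of a change was 0.10. Array medians lay between 6.35 and 6.36 on the 440 mg/kg arrays and between 6.36 and 6.40 on the vehicle arrays. With every array centred on its median, 1057 genes rose and 510 fell, so that increases made up 67.5% of the calls in place of 61.2%. The 3' minus 5' difference of the Gapdh control probe sets, a sign of RNA quality, was 1.08 to 1.31 at 440 mg/kg and 0.82 to 1.35 in vehicle livers (exact two-sided permutation p = 0.875 over 56 arrangements). For beta-actin it was 2.14 to 2.61 at 440 mg/kg and 1.67 to 2.44 in vehicle livers (exact permutation p = 0.286). The count of 1570 became 867 without 440 mg/kg replicate 2 and 945 without replicate 3. The median correlation of each of the 8 arrays with all others was 0.991 to 0.993. The array 881 mg/kg replicate 2, which enters the shared estimate of the spread, had 0.979 and a Gapdh difference of 5.24, and 2000 genes were called without it, all 1570 among them. Probe sets with no single gene symbol were left unnamed, and 387 of 10216 of them (3.79%) were called, against 1888 of all 31042 (6.08%).

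The largest increase was in Dbp, a transcription factor of clock output. Dbp read 10.87, 10.14 and 10.38 on the 440 mg/kg arrays, against 5.80, 6.34, 5.96, 5.97 and 5.73 on the vehicle arrays. The 2 groups lay far apart, a 22.6-fold difference (log2 change 4.50 ± 0.27, SE; adjusted p = 1.19e-08). Ces2c, a carboxylesterase that hydrolyses ester drugs, read 11.82, 12.35 and 12.43 at 440 mg/kg, against 8.76, 8.92, 8.75, 8.87 and 8.82 in vehicle livers. Its vehicle arrays lay close together, and the change was 10.3-fold (3.37 ± 0.21, adjusted p = 1.19e-08). Abcc3, which exports glucuronides into the blood, read 9.36, 9.90 and 10.38 at 440 mg/kg, against 6.38, 6.36, 6.63, 6.83 and 6.72 in vehicle livers. All 3 dosed arrays again lay above all 5 vehicle arrays, a 9.82-fold difference (3.30 ± 0.33, adjusted p = 3.67e-06).

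Hsd17b2, the enzyme that oxidises estradiol to estrone and testosterone to androstenedione, read 13.33, 12.69 and 12.81 at 440 mg/kg. Its vehicle arrays read 10.39, 10.86, 10.34, 10.45 and 10.42, so the groups did not overlap (log2 change 2.45 ± 0.20, adjusted p = 3.73e-07). Nfe2, a transcription factor of megakaryocytes and red cell precursors, read 8.65, 8.60 and 8.42 at 440 mg/kg and 6.90, 5.36, 6.30, 5.58 and 5.77 in vehicle livers (2.58 ± 0.42, adjusted p = 0.000632). It was the only 1 of 10 measured blood cell markers that rose (10%, near the 6.76% of all genes), and 0 fell. The other markers of that list included Hbb, a beta-globin gene, at -0.46, and Slc4a1, the red cell anion exchanger, at -0.19, neither of which passed the test. Ddit4, an inhibitor of mTORC1, rose by 2.20 ± 0.41, with 9.09, 10.02 and 9.65 at 440 mg/kg and 7.26, 6.70, 7.99, 7.37 and 7.60 in vehicle livers. Cers6, a ceramide synthase, rose by 1.75 ± 0.18, and its lowest 440 mg/kg array (9.42) stood well above its highest vehicle array (8.36). Zfp354a, a zinc finger protein, rose by 2.53 ± 0.42, and Noct, a phosphatase of NADPH whose own transcript is rhythmic, by 2.64 ± 0.35. Tsku, a secreted protein of liver, rose by 1.87 ± 0.46 and Snx10, a sorting nexin, by 1.73 ± 0.46. Tsku was not called without 440 mg/kg replicate 3 (adjusted p = 0.0516) or when the replicate number was a block (0.0592), nor was Snx10 without replicate 2 (0.0864) or 3 (0.101). These genes and Usp2, Per3, Gsta3 and Akr7a3 are the 15 largest increases among called genes whose 3 dosed arrays all lay above the 5 vehicle arrays. Groups did not overlap for 3015 genes (21.2% of those tested) in either direction.

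The largest decrease was in Slc6a6, the taurine transporter. Slc6a6 read 6.62, 6.43 and 6.28 at 440 mg/kg, against 10.41, 10.73, 10.09, 10.13 and 10.13 in vehicle livers, and was thus 14.5-fold lower (log2 change -3.86 ± 0.24, adjusted p = 1.37e-08). A second probe set of the gene changed by -2.55. Egr1, an immediate early transcription factor, read 6.40, 7.49 and 7.38 at 440 mg/kg and 9.90, 10.15, 10.06, 10.61 and 9.47 in vehicle livers (-2.95 ± 0.29, adjusted p = 2.81e-06). Both sets of arrays were well separated. Stac3, an adaptor known from muscle excitation-contraction coupling, fell by 2.81 ± 0.45, with 8.38, 8.50 and 7.38 at 440 mg/kg and 11.73, 10.08, 10.80, 10.70 and 11.17 in vehicle livers. Slc34a2, a sodium-phosphate cotransporter, fell by 2.63 ± 0.30. Tubb2a, a beta-tubulin, read 9.60, 10.38 and 10.07 at 440 mg/kg, against 12.60, 12.40, 12.65, 12.69 and 12.39 in vehicle livers, so that every dosed array was far below every vehicle array (-2.53 ± 0.24, adjusted p = 2.26e-06). Nim1k, a serine/threonine kinase, fell by 2.15 ± 0.28 and Lgalsl, a galectin-related protein, by 1.98 ± 0.16. Lox, which cross-links collagen, read 5.24, 5.16 and 4.94 at 440 mg/kg and ranged more widely in vehicle livers, at 8.42, 7.64, 6.15, 7.01 and 8.45 (-2.42 ± 0.68, adjusted p = 0.0265). It was not called without any single 440 mg/kg array or without vehicle replicate 1, 2 or 5 (adjusted p of 0.0510 to 0.0919). The plot of the largest changes shows these spreads beside each other. These decreases were listed only if all dosed arrays lay below all vehicle arrays, so that separation follows from the choice.

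**Figure D1:**
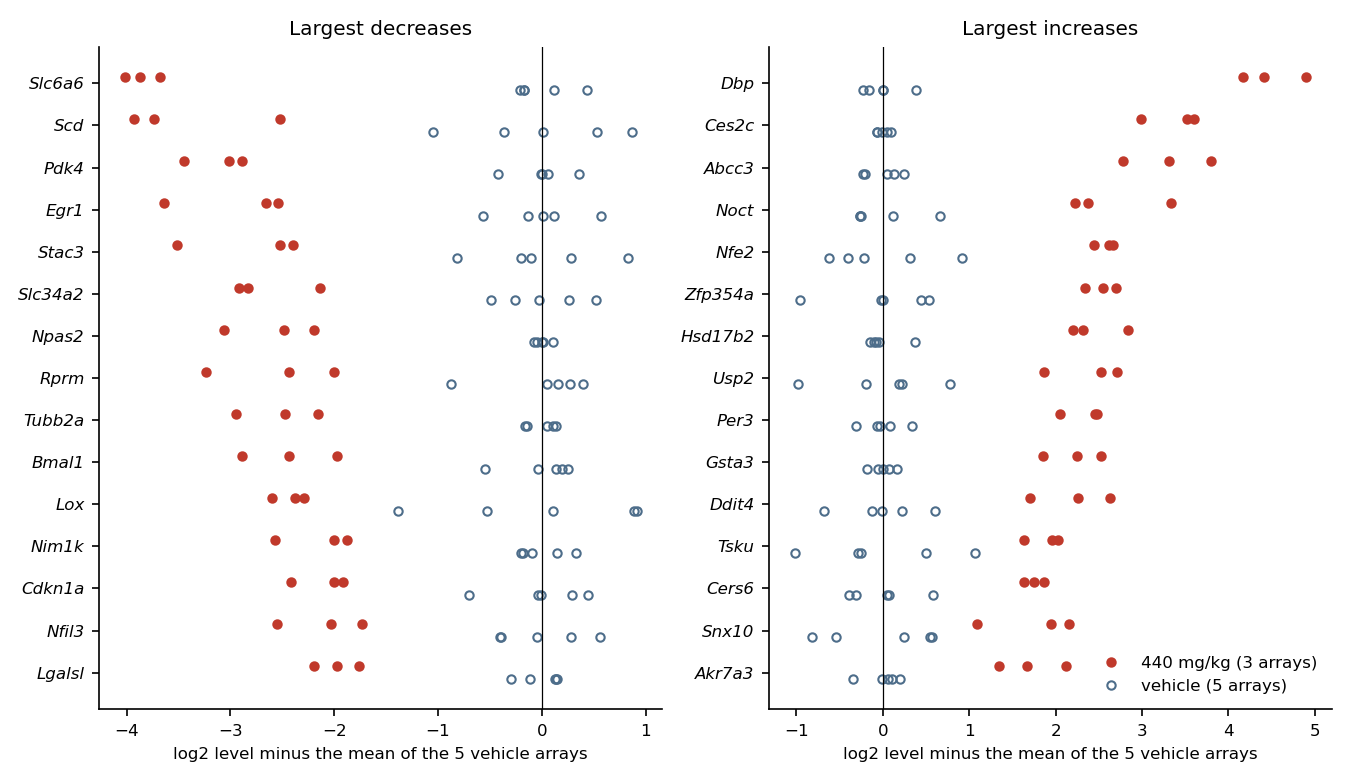
Log2 level of each array minus the mean of the 5 vehicle arrays, for the 15 genes that fell most (left) and the 15 that rose most (right) among called genes without overlap; filled points are the 3 arrays at 440 mg/kg and open points the 5 vehicle arrays. Slc6a6 and Dbp lie farthest from their vehicle arrays, and Lox, Tsku and Snx10 have the widest vehicle spread relative to their change.

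Of 23 measured targets of CAR and PXR, 13 (56.5%) rose and 1 (4.35%) fell, with a median log2 change of 0.58, against 6.76%, 4.28% and -0.0016 over all genes. They cover the oxidation, conjugation and export of foreign compounds. For oxidation, Cyp3a23-3a1, the PXR-induced cytochrome P450 3A of the rat, read 14.19, 14.19 and 14.40 at 440 mg/kg, against 13.27, 13.11, 13.04, 13.37 and 13.32 in vehicle livers (1.04 ± 0.14, adjusted p = 8.90e-05). Por, the reductase that supplies electrons to P450 enzymes, rose by 1.01, and Alas1, which catalyses the limiting step of heme formation, by 1.46 ± 0.23. Aldh1a1, a retinaldehyde dehydrogenase, rose by 1.37 ± 0.17. For conjugation, Ugt2b1 read 13.89, 14.13 and 14.08 at 440 mg/kg and 12.76, 12.48, 12.46, 12.62 and 12.83 in vehicle livers (1.40 ± 0.13, adjusted p = 2.15e-06). For export, Abcb1a, the P-glycoprotein pump, read 8.97, 8.66 and 8.82 at 440 mg/kg and 7.25, 7.24, 7.25, 7.49 and 7.40 in vehicle livers (1.49 ± 0.15, adjusted p = 4.50e-06), and a second probe set of it changed by 1.46. Abcc2, the canalicular conjugate pump, rose by 0.34. The member that fell was Cyp2a1, a steroid hydroxylase (-0.41 ± 0.11), which was not called without 440 mg/kg replicate 3 (-0.22, adjusted p = 0.205) or vehicle replicate 3 (0.0595). The receptors themselves stood at 0.15 (Nr1i3, CAR) and -0.07 (Nr1i2, PXR) and did not pass the test. Akr1b7, an aldo-keto reductase, stood at 1.51 and did not pass either. The lowest difference among the 23 targets was -1.01, in a member that did not pass.

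**Figure D2:**
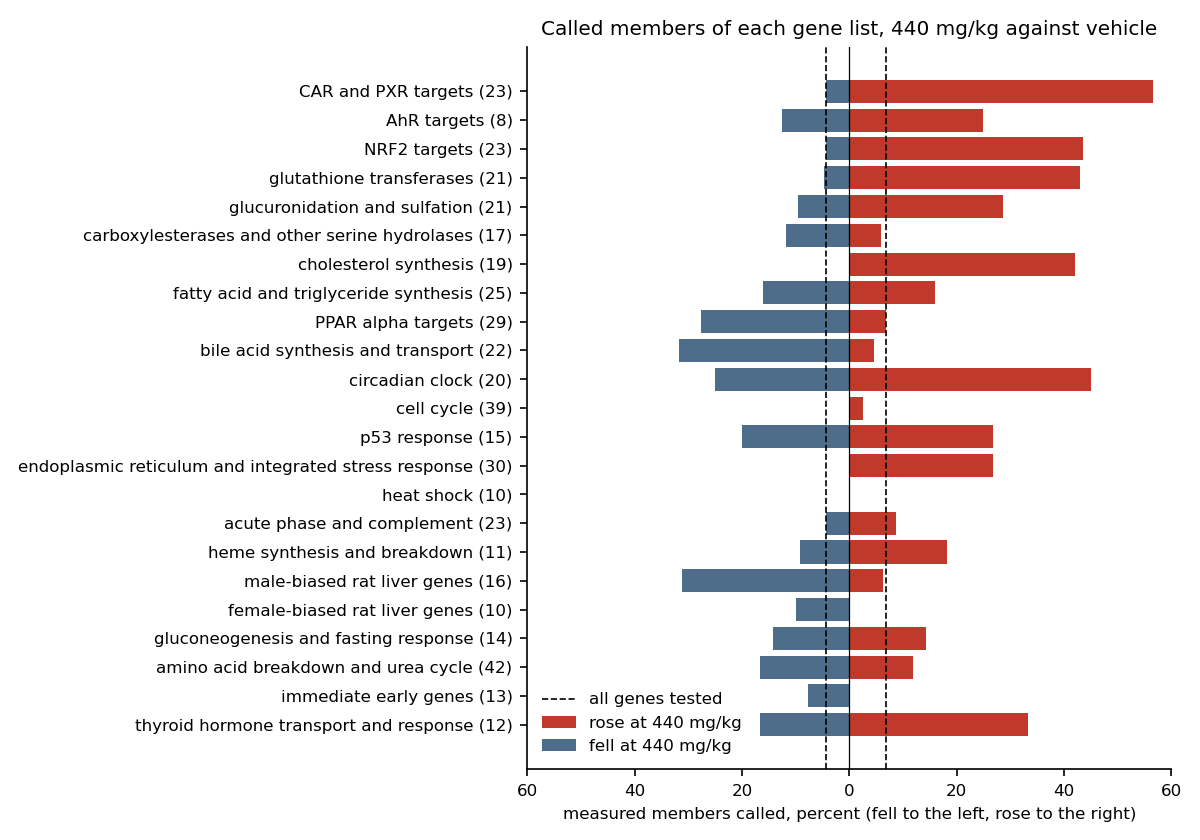
Percent of the measured members of 23 pathway lists that were called at 440 mg/kg against vehicle, with members that rose drawn to the right of 0 and members that fell to the left; numbers in parentheses are measured members and dashed lines mark 6.76% and 4.28%, the shares over all genes. CAR and PXR targets have the longest bar to the right (56.5%) and bile acid synthesis and transport the longest to the left (31.8%).

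Among targets of NRF2, 10 of 23 (43.5%) rose and 1 (4.35%) fell, against 6.76% and 4.28% of all genes. Their median was 0.63. Akr7a3, an aldo-keto reductase that detoxifies aflatoxin dialdehyde, read 12.74, 13.06 and 13.52 at 440 mg/kg, against 11.45, 11.05, 11.51, 11.39 and 11.60 in vehicle livers (1.71 ± 0.29, adjusted p = 0.000758). Nqo1, a quinone reductase that AhR also induces, read 9.44, 9.64 and 9.85 at 440 mg/kg and 8.20, 8.0, 8.22, 8.21 and 8.56 in vehicle livers (1.40 ± 0.25, adjusted p = 0.00147). For both genes every dosed array was above every vehicle array. Hmox1, which breaks down heme, rose by 1.02 ± 0.17, Gclm, the modifier subunit of the enzyme that starts glutathione synthesis, by 0.74, and Abcc4, an export pump, by 1.03. Gclc, the catalytic subunit of that enzyme, stood at 0.33 (adjusted p = 0.0632), and Txnrd1, a thioredoxin reductase, at 0.03. Osgin1, an oxidative stress-induced growth inhibitor, went the other way. It read 10.28, 10.73 and 10.90 at 440 mg/kg and 11.74, 11.69, 11.58, 11.78 and 12.12 in vehicle livers (-1.14 ± 0.15, adjusted p = 9.63e-05), with no overlap.

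Glutathione transferases join glutathione to electrophiles. Of 21 measured members 9 rose (42.9%) and 1 fell (4.76%), against 6.76% and 4.28% of all genes, with a median of 0.22. Gsta3 read 9.83, 10.21 and 10.49 at 440 mg/kg, against 7.78, 7.97, 8.04, 8.13 and 7.91 in vehicle livers (2.21 ± 0.43, adjusted p = 0.00226). Gstp1, the transferase best known as a marker of rat liver foci, read 11.30, 10.41 and 11.41 at 440 mg/kg and 9.76, 9.32, 9.23, 9.66 and 9.43 in vehicle livers (1.56 ± 0.26, adjusted p = 0.000758). The lowest dosed array of each gene lay above the highest vehicle array. Gstt3 rose by 1.51 ± 0.27 and Gsta4, which conjugates lipid aldehydes, by 1.03 ± 0.11. The member that fell was Hpgds, a prostaglandin D synthase of immune cells (-0.42), which was not called with arrays centred.

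NRF2 binds the antioxidant response element, and its core, TGACNNNGC on either strand, was searched in the 250 bases before the start of each gene in RefSeq's GRCr8 promoters. It occurred in 10.2% of 27457 promoters. Of the 21 NRF2 targets with a promoter, 5 held it, and 4 of these were among the 10 that were called; of 17 glutathione transferases 5 held it, 2 of them among the 7 called. The 5 called genes of these lists that hold the core are shown because their transcripts rose and the letters lie close to their start, with the core in capitals as it reads on the gene's strand.
Gsta3: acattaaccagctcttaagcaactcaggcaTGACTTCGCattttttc
Gstp1: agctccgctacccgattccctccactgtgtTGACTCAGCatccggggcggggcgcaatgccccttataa
Me1: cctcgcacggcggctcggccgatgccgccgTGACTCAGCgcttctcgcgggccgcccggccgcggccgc
Gclm: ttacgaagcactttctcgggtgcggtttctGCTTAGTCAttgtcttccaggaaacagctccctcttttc
Ugdh: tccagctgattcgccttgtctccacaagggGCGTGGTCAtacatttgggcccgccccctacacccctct
These stretches lie at chr9:31154942-31154988 (Gsta3, plus strand), chr1:210769728-210769796 (Gstp1, minus strand), chr8:96540373-96540441 (Me1, minus strand), chr2:213031933-213032001 (Gclm, plus strand) and chr14:43202281-43202349 (Ugdh, plus strand) of GRCr8. The matches lay 17 to 9 bases before the start in Gsta3, 61 to 53 in Gstp1, 167 to 159 in Me1, 172 to 164 in Gclm and 207 to 199 in Ugdh, the last 2 on the opposite strand. Gpx2, a glutathione peroxidase, also held the core and stood at 0.63 with an adjusted p of 0.584. Among all 86 named called genes with a promoter, 15 (17.4%) held it: 6 of the 44 that rose and 9 of the 42 that fell. A match describes these letters only, and binding was not measured.

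AhR targets were called in both directions. Cyp1a1 read 6.28, 7.63 and 7.99 at 440 mg/kg, against 5.51, 5.79, 5.75, 5.84 and 5.58 in vehicle livers (1.61 ± 0.34, adjusted p = 0.00486). All 3 dosed arrays were higher, and replicate 1 was nearer to the vehicle arrays than to the other dosed arrays. Cyp1a2, its hepatocyte relative, read 12.63, 12.70 and 12.54 at 440 mg/kg and 13.40, 13.21, 13.30, 13.44 and 13.44 in vehicle livers (-0.74 ± 0.08, adjusted p = 1.79e-05). Of the 8 targets 2 rose (25%), Cyp1a1 and Nqo1, and 1 fell (12.5%), against 6.76% and 4.28% of all genes. Cyp1b1 (-0.18), Ahrr, the AhR repressor (-0.11), and Tiparp (0.23) did not pass. The core bound by AhR, GCGTG on either strand, lay in the 250 bases before the start in 4 of the 6 targets with a promoter, 1 of them called, against 27.2% of all 27457 promoters. The called target with the core was Nqo1. Among the 86 named called genes with a promoter, 39 (45.3%) held it: 28 of the 44 that rose and 11 of the 42 that fell. The core also lay in 10 of the 21 NRF2 targets with a promoter. These named genes were picked by size of change, by list or beforehand, and their share was not tested against that of all promoters. Binding of AhR was not measured.

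Enzymes of glucuronidation and sulfation attach water-soluble groups to chemicals and hormones. Among 21 measured members 6 rose (28.6%) and 2 fell (9.52%), against 6.76% and 4.28% of all genes, with a median of 0.21. Those that rose were glucuronosyltransferases or supply their substrate: Ugt2b1, Ugt2b7 (1.14 ± 0.28), Ugt2b10 (0.62 ± 0.10), Ugt2b35 (0.21), Ugdh (0.38) and Ugp2 (0.35). Those that fell serve sulfation: Sult1e1, the estrogen sulfotransferase (-0.52 ± 0.12), and Papss2, which makes the sulfate donor (-0.38). Ugt2b7 was not called without 440 mg/kg replicate 3 (0.91, adjusted p = 0.0882). Ugt2b35, Ugdh, Ugp2 and Papss2 were named after their values were seen.

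Carboxylesterases and related serine hydrolases, a class that organophosphates can inhibit as proteins, showed 1 rise and 2 falls among 17 measured members (5.88% and 11.8%, against 6.76% and 4.28% of all genes). Ces2c stood alone on the upper side. Lpl, lipoprotein lipase, fell by 0.80 ± 0.14 and Lipc, hepatic lipase, by 0.59 ± 0.11. Bche, butyrylcholinesterase, read 6.86, 6.86 and 6.45 at 440 mg/kg and 6.60, 6.48, 6.57, 6.48 and 6.45 in vehicle livers. The groups overlapped, and the 95% interval of the log2 difference of 0.21 ran from -0.05 to 0.47. It became 0.14 without 440 mg/kg replicate 1 and 0.35 without replicate 3. Ces1d (-0.18), Ces1c (-0.03), Ces1e (0.09) and the paraoxonase Pon1 (0.01) did not pass. In heme metabolism Alas1 and Hmox1 rose and Alad fell by 0.26 ± 0.07, while the other 8 of 11 measured members did not pass. Alad was not called without vehicle replicate 1 or 4, 440 mg/kg replicate 2 or 3, or with a replicate block (adjusted p of 0.0552 to 0.149).

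Of 19 measured cholesterol synthesis genes 8 rose (42.1%) and 0 fell, against 6.76% and 4.28% of all genes, with a median of 0.59. Insig1, the sterol-sensing regulator that is itself an SREBP target, read 12.30, 12.62 and 12.26 at 440 mg/kg, against 11.49, 10.68, 11.13, 10.75 and 10.11 in vehicle livers (1.56 ± 0.30, adjusted p = 0.00242). Mvd, which forms isopentenyl diphosphate, rose by 1.18 ± 0.25, Msmo1, a sterol methyl oxidase, by 1.05 ± 0.21, and Stard4, a cholesterol carrier, by 1.0 ± 0.14. Msmo1 read 12.63, 12.66 and 12.65 at 440 mg/kg, a spread far narrower than the 11.09 to 11.82 of the vehicle arrays. Sqle, squalene epoxidase (0.83), Lss, lanosterol synthase (0.76), Hsd17b7 (0.88) and Fdft1, squalene synthase (0.59), were the other 4 called. Fdps (0.05), Dhcr7 (0.07) and Nsdhl (-0.12) did not pass.

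Fatty acid and triglyceride genes were called in both directions. Of 25 measured members 4 rose (16.0%) and 4 fell (16.0%), against 6.76% and 4.28% of all genes. Scd, the desaturase that makes monounsaturated fatty acids, read 8.76, 7.54 and 7.35 at 440 mg/kg, against 11.29, 11.82, 12.15, 10.24 and 10.92 in vehicle livers. It was 10.5-fold lower, with no overlap but wide spread in both groups (-3.40 ± 0.54, adjusted p = 0.000470). Gpam, which starts glycerolipid synthesis (-1.04), Acsl5, an acyl-CoA synthetase (-0.77), and the elongase Elovl5 (-0.55) were the others that fell. Thrsp, the thyroid hormone-responsive lipogenic protein, read 13.35, 12.75 and 12.78 at 440 mg/kg and 11.54, 11.81, 11.65, 10.96 and 11.30 in vehicle livers (1.51 ± 0.22, adjusted p = 0.000236), and 2 further probe sets changed by 1.51 and 1.56. Me1, malic enzyme, rose by 1.12 ± 0.24 and Lpin2, a phosphatidate phosphatase, by 1.06 ± 0.16. Me1 was not called without 440 mg/kg replicate 3 (0.91, adjusted p = 0.0510). Acaca, acetyl-CoA carboxylase, rose by 0.56. Fasn, fatty acid synthase, read 11.71, 11.22 and 11.22 at 440 mg/kg and 10.25, 10.31, 11.31, 10.42 and 10.83 in vehicle livers. Vehicle replicate 3 lay among the dosed arrays, and the difference of 0.76 (95% interval 0.20 to 1.32) did not pass (adjusted p = 0.0773), although it did without that array (0.0261). Srebf1, the transcription factor of lipogenic genes, stood at 0.26 and did not pass, and its value became 0.0042 without 440 mg/kg replicate 1, 0.52 without replicate 3 and 0.14 without vehicle replicate 4.

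Of the PPAR alpha targets 8 of 29 fell (27.6%, against 4.28% of all genes) and 2 rose (6.90%, near 6.76%). Their median was -0.12. Pdk4, the kinase that shuts off pyruvate dehydrogenase, read 7.25, 7.38 and 6.82 at 440 mg/kg, against 10.27, 10.27, 10.33, 10.63 and 9.85 in vehicle livers. It was 8.68-fold lower (-3.12 ± 0.27, adjusted p = 9.64e-07), and a second probe set changed by -0.80. Angptl4, an inhibitor of lipoprotein lipase, read 9.01, 9.96 and 9.62 at 440 mg/kg and 11.50, 11.62, 11.48, 11.52 and 10.87 in vehicle livers (-1.87 ± 0.27). Plin2, the lipid droplet coat protein, read 11.75, 11.62 and 11.47 at 440 mg/kg and 13.06, 13.30, 13.53, 13.33 and 12.98 in vehicle livers (-1.63 ± 0.19, adjusted p = 2.34e-05). None of the 3 overlapped with vehicle, although Pdk4 is among the largest decreases, which were chosen without overlap. The fatty acid omega-hydroxylases split: Cyp4a1 (-0.83 ± 0.17) and Cyp4a3 (-0.76) fell, while Cyp4a8 rose by 1.49 ± 0.31. Among enzymes of beta-oxidation Cpt1a (-0.15), Hadha (-0.15) and Ehhadh (-0.08) did not pass. Acadm fell by 0.21 and Decr1 rose by 0.27.

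Of 22 genes of bile acid synthesis and transport, 7 fell (31.8%) and 1 rose (4.55%), against 4.28% and 6.76% of all genes. Their median was -0.17. Abcb4, the canalicular phospholipid flippase, read 9.49, 9.30 and 9.50 at 440 mg/kg and 10.12, 10.37, 10.19, 10.15 and 10.33 in vehicle livers (-0.80 ± 0.08, adjusted p = 2.81e-06). Abcg8 (-1.17 ± 0.26) and Abcg5 (-0.96 ± 0.29), the partner subunits of the canalicular sterol pump, both fell, and Slc27a5, which activates bile acids for conjugation, fell by 0.71 ± 0.13. Slco1b2, a hepatic uptake carrier, fell by 0.41 and Baat, which conjugates bile acids, by 0.21. With a replicate block Abcg8 and Abcg5 were not called (adjusted p of 0.0512 and 0.118), nor was Abcg5 without any single 440 mg/kg array or without vehicle replicate 1, 2, 4 or 5 (0.0583 to 0.135). Cyp7a1, whose hydroxylation of cholesterol opens the bile acid pathway, read 10.98, 11.78 and 12.49 at 440 mg/kg, against 10.54, 9.74, 11.55, 11.82 and 11.38 in vehicle livers. Its groups overlapped, and the difference of 0.74 had a 95% interval of -0.06 to 1.55 and became 1.13 without replicate 1 and 0.37 without replicate 3 of the dosed arrays, and 0.43 without vehicle replicate 2. Abcb11, the bile salt export pump (-0.16), and Slc10a1, the main bile salt uptake carrier (-0.11), did not pass.

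The circadian clock list had 14 of 20 measured members called, 9 rising (45.0%) and 5 falling (25%), against 6.76% and 4.28% of all genes. Bmal1 and its partners Npas2 and Clock were lower at 440 mg/kg, and of the genes they switch on Per1, Per3, Cry2, Nr1d1, Nr1d2 and Dbp were higher while Cry1 was lower. Besides Dbp, Per3 read 7.65, 7.63 and 7.21 at 440 mg/kg, against 5.10, 4.85, 5.13, 5.24 and 5.51 in vehicle livers (2.33 ± 0.23, adjusted p = 2.81e-06), but a second probe set of Per3 changed by 0.00. Usp2, a rhythmic deubiquitinase, read 10.33, 9.49 and 10.15 at 440 mg/kg and 8.40, 7.43, 7.85, 7.81 and 6.64 in vehicle livers (2.36 ± 0.40). The others that rose, named after their values were seen, were Nr1d1 (1.62), Nr1d2 (1.55), the Dbp relative Tef (1.31), Bhlhe40, a repressor of the clock (1.23), Per1 (1.05) and Cry2 (0.97). On the other side, Bmal1 read 5.56, 6.47 and 6.01 at 440 mg/kg and 8.70, 7.90, 8.58, 8.64 and 8.40 in vehicle livers (-2.43 ± 0.23, adjusted p = 2.15e-06). Npas2 read 5.67, 6.24 and 6.53 at 440 mg/kg against a tight 8.83, 8.65, 8.68, 8.72 and 8.74 in vehicle livers (-2.58 ± 0.24, adjusted p = 2.15e-06). Nfil3, the repressor that competes with Dbp, read 7.54, 8.35 and 8.06 at 440 mg/kg and 9.68, 10.04, 9.70, 10.37 and 10.65 in vehicle livers (-2.10 ± 0.23, adjusted p = 1.01e-05). Clock (-0.54) and Cry1 (-0.62) also fell. Per2 (0.11), Hlf (0.41), Bhlhe41 (0.17) and Rora (-0.33) did not pass.

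Dose by dose the clock genes were not alike. Mean Dbp was 5.96 with vehicle, 9.70 at 55, 10.03 at 110, 9.73 at 220, 10.46 at 440 and 9.79 at 881 mg/kg, so that the vehicle group stood apart from every dosed group. Mean Usp2 was 7.63 with vehicle and 7.61, 8.47, 8.69, 9.99 and 8.69 over the same doses, and mean Noct was 6.12 with vehicle and 5.85, 6.22, 6.33, 8.76 and 7.70. For Usp2 and Noct the 55 mg/kg mean was thus no higher than the vehicle mean. Mean Bmal1 was 8.44 with vehicle and 7.15, 6.99, 7.01, 6.01 and 6.60 over the doses. All dosed groups share the vehicle arrays, so these means only describe each gene.

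**Figure D3:**
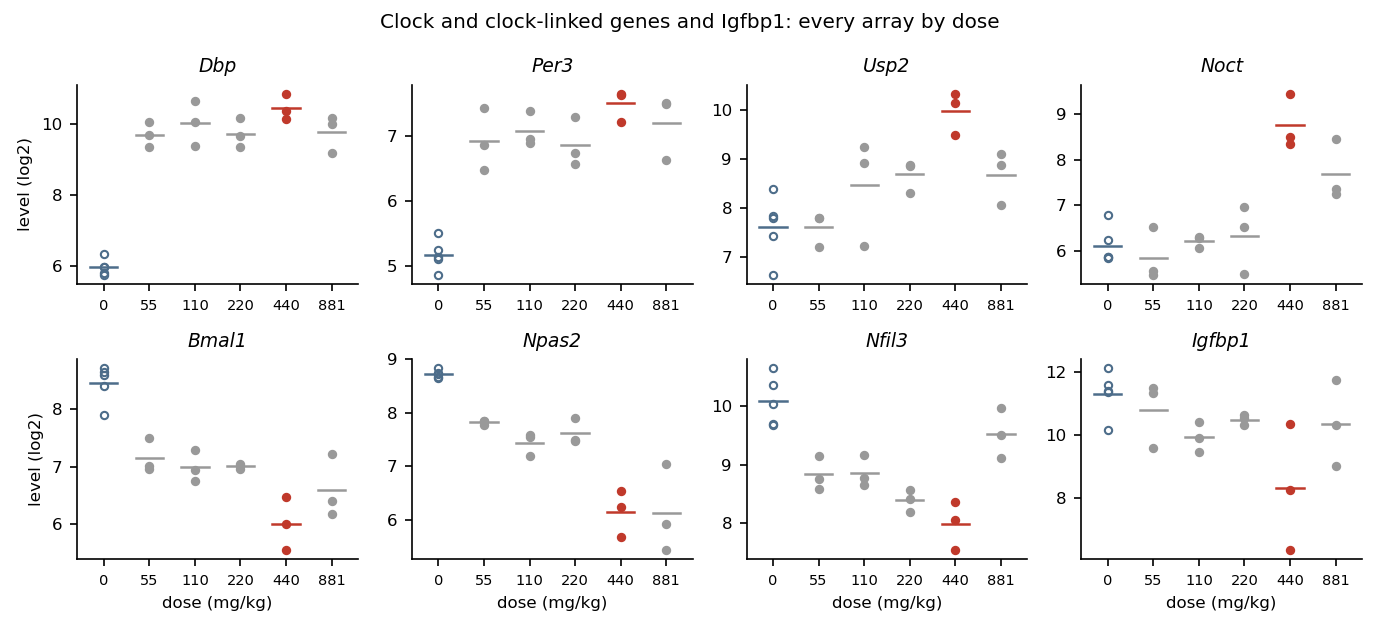
Log2 level of every array by dose (mg/kg, 0 is vehicle) for 7 clock or rhythmic genes and Igfbp1; open points are vehicle arrays, red points the 440 mg/kg arrays, grey points the other doses, and bars group means. Dbp and Per3 are high and Bmal1 and Npas2 low at every dose relative to vehicle, Noct is highest at 440 mg/kg, and Igfbp1 spreads most widely at 440 mg/kg, from 6.34 to 10.35.

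The E-box bound by Bmal1 with Clock, CACGTG, occurred in the 250 bases before the start in 5.79% of the 27457 promoters. Of 17 clock genes with a promoter 3 held it, and 2 of these were among the 13 that were called, Tef and Bhlhe40. They are shown, with the E-box in capitals, since they are the called clock genes with these letters in this window.
Tef: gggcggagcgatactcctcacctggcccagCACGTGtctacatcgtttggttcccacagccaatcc
Bhlhe40: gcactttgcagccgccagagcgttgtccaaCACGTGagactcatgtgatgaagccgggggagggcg
The Tef stretch lies at chr7:115206599-115206664 and the Bhlhe40 stretch at chr4:143174200-143174265 of GRCr8, both on the plus strand. The E-box lay 198 to 193 bases before the start of Tef and 220 to 215 before that of Bhlhe40. Tef lay between 9.76 and 9.79 at 440 mg/kg and between 8.24 and 8.65 in vehicle livers (adjusted p = 1.74e-07). Bhlhe40 lay between 8.74 and 9.38 at 440 mg/kg and between 7.57 and 8.43 in vehicle livers (adjusted p = 0.00692), so neither gene overlapped. The third holder, Bhlhe41, did not pass the test. Among the 86 named called genes with a promoter, 7 (8.14%) held the E-box: 4 of the 44 that rose and 3 of the 42 that fell. The D-box bound by Dbp, TTATGTAA, occurred in 0.816% of all promoters and in 0 of the 86 named called genes.

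Genes of the p53 response, which arrests growth or starts cell death after DNA damage, were called in both directions. Of 15 measured members 4 rose (26.7%) and 3 fell (20%), against 6.76% and 4.28% of all genes. Cdkn1a, the cyclin-dependent kinase inhibitor p21, read 7.90, 8.40 and 8.31 at 440 mg/kg, against 10.31, 10.28, 10.76, 10.61 and 9.61 in vehicle livers (-2.11 ± 0.22, adjusted p = 5.73e-06). Mean Cdkn1a was 10.31 with vehicle and 8.08, 8.20, 8.42, 8.20 and 8.39 from 55 to 881 mg/kg, so the lower level was not particular to 440 mg/kg. Rprm, a mediator of G2 arrest, read 5.11, 6.34 and 5.91 at 440 mg/kg and 8.49, 7.47, 8.74, 8.39 and 8.61 in vehicle livers (-2.56 ± 0.33), and Phlda3, an Akt repressor, fell by 0.94 ± 0.14. All 3 were separated from vehicle, although Cdkn1a and Rprm are among the largest decreases, which were chosen without overlap. The members that rose were Fas, a death receptor (0.63 ± 0.19), Bbc3, the PUMA protein (0.62), Sesn1 (0.59) and Mdm2 (0.41). Fas was not called without any single 440 mg/kg array, without vehicle replicate 1, 2, 3 or 4, or on the mean of its probe sets (adjusted p of 0.0519 to 0.193).

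Of 39 measured cell cycle genes 1 (2.56%) rose and 0 fell, with 6.76% and 4.28% over all genes. It was the mitotic kinesin Kif11 (0.58 ± 0.15), whose second probe set changed by -0.01. The median was 0.04. Mki67, a proliferation marker, read 5.41, 6.03 and 5.35 at 440 mg/kg and 4.64, 5.12, 5.13, 4.87 and 5.97 in vehicle livers, with overlap and a 95% interval of -0.28 to 1.19. Kif11 was not called without 440 mg/kg replicate 2 (adjusted p = 0.0744) or 3 (0.0603), or on the mean of its probe sets (0.28, adjusted p = 0.103). The difference of Mki67 was 0.45 and became 0.23 without 440 mg/kg replicate 2.

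The endoplasmic reticulum and integrated stress responses answer unfolded protein and lack of amino acids. Of 30 members 8 rose (26.7%) and 0 fell, against 6.76% and 4.28% of all genes, with a median of 0.18. Trib3, a pseudokinase induced by Atf4, read 9.71, 10.05 and 10.27 at 440 mg/kg, against 8.03, 8.54, 9.57, 8.64 and 8.26 in vehicle livers (1.40 ± 0.33), and 2 further probe sets changed by 1.91 and 2.05. Asns, asparagine synthetase (1.37 ± 0.40), and the serine synthesis enzymes Psat1 (1.31 ± 0.34), Phgdh (1.01 ± 0.31) and Psph (0.60) rose. Atf4 itself, the transcription factor of this response, rose by 0.82. Vehicle replicate 1 was the lowest array for Trib3, Asns, Psat1 and Phgdh alike, and vehicle replicate 3 the highest. Asns read 10.09, 9.78 and 9.45 at 440 mg/kg and 7.26, 8.72, 9.37, 8.42 and 8.25 in vehicle livers. Neither Asns nor Phgdh was called without any single 440 mg/kg array, without vehicle replicate 1, 4 or 5, or, for Phgdh, without vehicle replicate 2 (adjusted p of 0.0554 to 0.129). Psat1 was not called without 440 mg/kg replicate 2 (0.0729), nor Trib3 without replicate 3 (0.0564). The chaperones of the endoplasmic reticulum Hspa5 (0.09), Hsp90b1 (0.07) and Calr (-0.10) and the cell-death factor Ddit3 (0.13 ± 0.15) did not pass, nor did Gdf15 (0.22 ± 0.15). Ddit3 read 8.42, 8.54 and 8.21 at 440 mg/kg and 8.25, 8.39, 8.42, 8.06 and 8.22 in vehicle livers. Its difference was 0.05 without 440 mg/kg replicate 2, 0.22 without replicate 3 and 0.07 without vehicle replicate 4, and that of Gdf15 was 0.39 without 440 mg/kg replicate 1 and 0.13 without replicate 2. Of 10 heat shock genes 0 passed in limma's test, with 4 at an unadjusted p under 0.05, and 1 rose with arrays centred.

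Among 13 immediate early genes, which answer growth factors within minutes, 1 was called (7.69%, against 11.0% of all genes), Egr1, which fell. Fos stood at -0.03, Jun at 0.08, Junb at -0.49, Atf3 at 0.82 and Myc at 0.81, and none of these passed.

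Sex-biased genes of the rat liver depend on the pattern of growth hormone. Of 16 male-biased members 1, Hsd17b2, rose (6.25%, near the 6.76% of all genes), and 5 fell (31.2%, against 4.28%). Besides Stac3 these were Obp3, a urinary lipocalin (-1.14 ± 0.26), Socs2, a feedback inhibitor of growth hormone signalling (-1.05 ± 0.30), Slc22a8, an organic anion carrier (-0.61 ± 0.15), and Sult1e1. Cyp2c11, the classical male-specific P450 of rat liver, read 14.19, 13.97 and 14.20 at 440 mg/kg and 14.45, 14.20, 14.23, 14.28 and 14.25 in vehicle livers. The change of -0.16 did not pass, with a 95% interval of -0.37 to 0.05, and became -0.08 without 440 mg/kg replicate 2. Of 10 female-biased members 1 fell (10.0%), Cyp2a1, and 0 rose, against 11.0% of all genes called in either direction. Obp3 was not called without 440 mg/kg replicate 2 (adjusted p = 0.0660), nor Slc22a8 without replicate 2 (0.0802) or 3 (0.0654), nor Socs2 without replicate 2 (0.115) or 3 (0.136) or without vehicle replicate 1 (0.0649).

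Thyroid hormone genes had 4 of 12 members rising (33.3%) and 2 falling (16.7%), against 6.76% and 4.28% of all genes. Those that rose were Thrsp, Me1, Klf9, a transcription factor that thyroid hormone and glucocorticoids induce (0.80 ± 0.19), and Thrb, the main receptor of liver (0.54). Gpd2, mitochondrial glycerol phosphate dehydrogenase, fell by 0.71 ± 0.21 and Crym, a cytosolic thyroid hormone binder, by 0.59. Klf9 was not called on the mean of its probe sets (0.35, adjusted p = 0.0898), and Gpd2 was not called without any single 440 mg/kg array, without vehicle replicate 2 or 3, or on the mean of its probe sets (0.0517 to 0.141). Dio1, the deiodinase that forms the active hormone, read 7.75, 8.06 and 8.07 at 440 mg/kg and 7.81, 7.82, 8.06, 7.86 and 8.02 in vehicle livers, with a 95% interval of -0.22 to 0.31. Serpina7, thyroxine-binding globulin, read 9.95, 10.60 and 10.65 at 440 mg/kg and 10.79, 11.69, 11.08, 11.13 and 10.41 in vehicle livers, which overlapped (-0.62, adjusted p = 0.221, and -0.40 without 440 mg/kg replicate 1).

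Fasting-linked and insulin-linked genes were called in both directions. Of 14 members 2 rose (14.3%) and 2 fell (14.3%), against 6.76% and 4.28% of all genes. Igfbp1, an insulin-repressed binder of insulin-like growth factors, read 6.34, 8.23 and 10.35 at 440 mg/kg, against 10.13, 11.56, 11.37, 12.10 and 11.34 in vehicle livers. The dosed arrays differed widely, replicate 3 lay inside the vehicle range, and the change of -3.0 ± 0.69 (adjusted p = 0.00822) became -2.01 (adjusted p = 0.0695) without replicate 1. Irs2, an insulin receptor substrate, fell by 0.82 ± 0.14, while Klf15, a transcription factor of amino acid use in fasting, rose by 1.0 ± 0.19 and Ppp1r3b, which directs glycogen synthesis, by 0.99 ± 0.25. Ppp1r3b was not called without 440 mg/kg replicate 1 (adjusted p = 0.0671) or 2 (0.0771) or with a replicate block (0.0673). Pck1, the gluconeogenic carboxykinase, stood at -0.27 and did not pass.

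Amino acid breakdown had 7 of 42 members falling (16.7%) and 5 rising (11.9%), against 4.28% and 6.76% of all genes. Oat, ornithine aminotransferase of pericentral hepatocytes, read 8.87, 9.19 and 8.71 at 440 mg/kg, against 11.47, 10.63, 10.80, 10.89 and 10.65 in vehicle livers (-1.97 ± 0.24, adjusted p = 3.29e-05). Cth, which makes cysteine from cystathionine, read 12.28, 12.26 and 12.39 at 440 mg/kg and 13.73, 13.40, 13.42, 13.44 and 13.36 in vehicle livers (-1.16 ± 0.16). Cbs, the preceding enzyme of the same pathway, fell by 0.70, and Gnmt, which consumes S-adenosylmethionine, by 0.85 ± 0.12. Kynu, of tryptophan breakdown, fell by 0.87 ± 0.11, and its 440 mg/kg arrays lay close together (11.44, 11.49 and 11.51). The urea cycle enzymes Cps1 (-0.15) and Otc (0.11) did not pass, while Arg1 rose by 0.27 ± 0.07 but was not called without 440 mg/kg replicate 3 (adjusted p = 0.0542). Acute phase and complement genes were called about as often as all genes, with 2 of 23 rising (8.70%, against 6.76%) and 1 falling (4.35%, against 4.28%). Those that rose were Orm1 (0.65 ± 0.16) and the iron hormone Hamp (0.31 ± 0.09), and the lectin Mbl2 fell (-0.43 ± 0.07). Orm1 was not called without 440 mg/kg replicate 3 (adjusted p = 0.0808). Hamp was not called without 440 mg/kg replicate 1 or 3, vehicle replicate 1, 2 or 5, with the 2 groups alone or with a replicate block (0.0526 to 0.144).

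Among cell type markers, 10 of 19 for stellate cells and fibroblasts and 7 of 13 for endothelial cells fell, against 4.28% of all genes. Of 13 hepatocyte markers 1 rose (7.69%, near the 6.76% of all genes), Apoa1 (0.23 ± 0.07), and 0 fell, and their mean level was 13.77 to 13.92 at 440 mg/kg and 13.76 to 13.91 in vehicle livers. Apoa1 was not called under 8 alternatives, among them leaving out 440 mg/kg replicate 2 or 3 or vehicle replicate 1, 2, 4 or 5 (adjusted p of 0.0580 to 0.176). Pericentral markers had 2 of 12 rising (16.7%) and 4 falling (33.3%), among them Tbx3, a transcription factor (-0.58 ± 0.12), and Cyp2e1 (-0.34). Periportal markers had 3 of 13 rising (23.1%) and 1, Igf1 (-0.25 ± 0.07), falling (7.69%), with 6.76% rising and 4.28% falling over all genes. Cdh1, the junction protein E-cadherin and 1 of the 3 that rose (0.33), was not called without 440 mg/kg replicate 2 (adjusted p = 0.0857) or 3 (0.0571) or on the mean of its probe sets (0.19, adjusted p = 0.0955), and its second probe set changed by 0.05. Igf1 was not called under 8 alternatives, among them leaving out 440 mg/kg replicate 1 or 3 or any of vehicle replicates 1 to 4 (0.0512 to 0.209). On the mean of its probe sets Tbx3 changed by -0.18 and was not called (adjusted p = 0.0821). Stellate cell and fibroblast markers fell in 10 of 19 cases (52.6%), with a mean level of 7.56 to 7.72 at 440 mg/kg and 8.09 to 8.29 in vehicle livers. The receptors Pdgfra and Pdgfrb moved with little spread: Pdgfra read 7.98, 7.92 and 7.88 at 440 mg/kg and 8.90, 8.82, 8.73, 8.95 and 8.70 in vehicle livers (-0.89 ± 0.07, adjusted p = 5.23e-07). Pdgfrb changed by -0.94 ± 0.09, but its 2 other probe sets by -0.09 each. Col3a1, a fibrillar collagen, fell by 0.88 ± 0.20, and Lox belongs to the same list. The part of cell content in these changes was not tested.

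Endothelial markers fell in 7 of 13 cases (53.8%), with a mean level of 8.25 to 9.05 at 440 mg/kg and 9.0 to 9.30 in vehicle livers. Dnase1l3, a nuclease of liver sinusoidal cells, fell by 0.95 ± 0.27, Kdr, the VEGF receptor, by 0.66 ± 0.20, Ptprb, a vascular phosphatase, by 0.68 ± 0.20, and Fcgr2b, an Fc receptor, by 1.12 ± 0.34. On all 4 of them 440 mg/kg replicate 3 was the lowest array and replicate 1 the highest of the dosed arrays, and for Kdr, Ptprb and Fcgr2b replicate 1 lay inside the vehicle range. None of the 4 was called without replicate 2 or 3 of the dosed arrays or without vehicle replicate 1, 2 or 4, nor, for Kdr, Ptprb and Fcgr2b, without vehicle replicate 3, with adjusted p of 0.0522 to 0.233. Without 440 mg/kg replicate 3 the changes were -0.66 for Dnase1l3, -0.47 for Kdr, -0.42 for Ptprb and -0.72 for Fcgr2b. On the mean of its probe sets Kdr changed by -0.28 and was not called (adjusted p = 0.177). Kupffer cell and macrophage markers fell in 3 of 12 cases (25%), Lyz2 (-0.88 ± 0.19), Cd163 (-0.67 ± 0.18) and Clec4f (-0.63 ± 0.16), and all 12 differences were below 0. Their mean level was 8.84 to 9.38 at 440 mg/kg and 9.56 to 9.99 in vehicle livers. Cd163 and Clec4f were not called without 440 mg/kg replicate 3 (adjusted p of 0.122 and 0.129), nor Cd163 without 440 mg/kg replicate 1 or vehicle replicate 2 or 4 (0.0524 to 0.0554), and 5 of the 12 were called without 881 mg/kg replicate 2. Lymphocyte markers had 1 of 13 falling (7.69%, against 4.28% of all genes), Lck (-0.41 ± 0.13). Lck was not called with arrays centred, without any single array of either group, with a replicate block or with an intensity trend (adjusted p of 0.0504 to 0.159). The mean level of the lymphocyte markers was 5.98 to 6.14 at 440 mg/kg and 6.25 to 6.29 in vehicle livers. Bile duct markers had Epcam (0.84 ± 0.14) and Anxa4 (0.38 ± 0.10) rising and Sox4 (-0.81 ± 0.20) falling among 9, while Krt19 (0.17) and Krt7 (-0.10) did not pass. That is 22.2% rising and 11.1% falling, against 6.76% and 4.28% of all genes. Anxa4 was not called without 440 mg/kg replicate 2 or 3, without vehicle replicate 2, 3 or 4 or on the mean of its probe sets (0.0516 to 0.143), nor Sox4 without 440 mg/kg replicate 1 (0.0618) or 3 (0.0595). In bulk liver RNA, fewer cells of a type and less RNA per cell cannot be told apart.

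**Figure D4:**
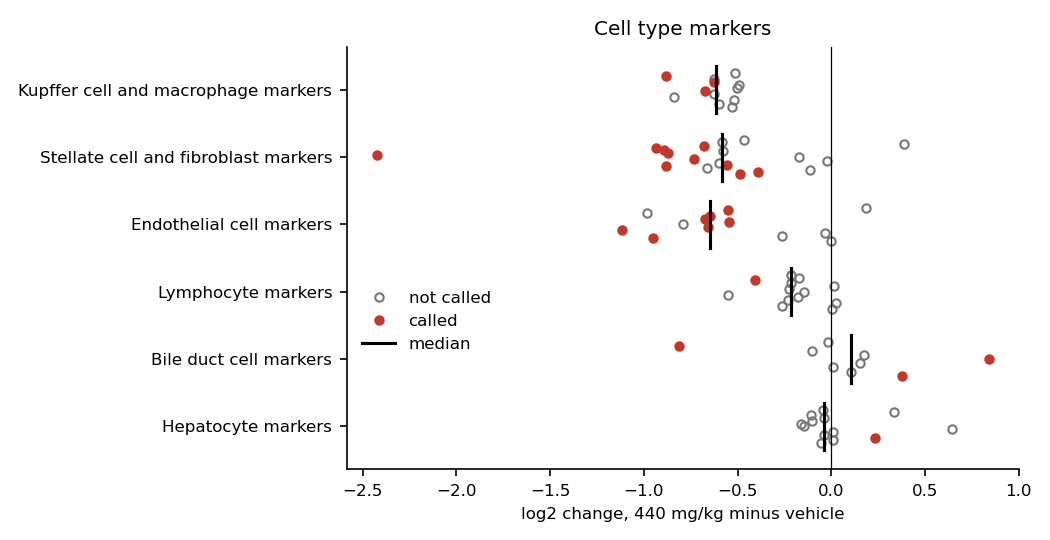
Log2 change at 440 mg/kg minus vehicle for each measured marker of 6 liver cell types; filled points were called, open points were not, and black bars are medians. Kupffer, stellate and endothelial markers lie mostly below 0, with medians of -0.61, -0.58 and -0.65, and hepatocyte markers around 0, with a median of -0.04.

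Few genes were called between 440 mg/kg and the neighbouring doses. The vehicle arrays enter these tests through the shared estimate of the spread but not through the means compared. Between 440 and 881 mg/kg 37 genes (0.260%) were called, 18 higher (0.127%) and 19 lower (0.134%) at 440 mg/kg, with 1510 at an unadjusted p under 0.05. Pdk4 read 7.25, 7.38 and 6.82 at 440 mg/kg, against 8.22, 9.08 and 9.84 at 881 mg/kg (440 minus 881: -1.90 ± 0.31, adjusted p = 0.0186). Osgin1 read 10.28, 10.73 and 10.90 at 440 mg/kg and 11.61, 12.15 and 12.19 at 881 mg/kg (-1.35 ± 0.17, adjusted p = 0.00376). Genes were named here only if their 440 mg/kg arrays all lay beyond the 881 mg/kg arrays, so that separation follows from the choice. Nfil3 was lower at 440 mg/kg by 1.55 ± 0.26 on the log2 scale (means of 7.98 at 440 mg/kg and 9.53 at 881 mg/kg). Tubb2a was lower by 1.49 ± 0.27, with means of 10.02 at 440 mg/kg and 11.51 at 881 mg/kg, and Pnrc1, a nuclear receptor coactivator, by 1.13 ± 0.22, with means of 9.57 at 440 mg/kg and 10.70 at 881 mg/kg. At 55, 110 and 220 mg/kg the mean of Tubb2a was 10.76, 10.47 and 10.59, so that 881 mg/kg was the dosed group nearest to the vehicle mean of 12.55.

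Higher at 440 than at 881 mg/kg were Serpina7, Lpin1, Tob2, Slc22a8 and Sult1c3. Serpina7 read 9.95, 10.60 and 10.65 at 440 mg/kg and 8.95, 8.59 and 8.50 at 881 mg/kg (440 minus 881: 1.72 ± 0.35, adjusted p = 0.0426). With a replicate block its adjusted p was 0.0536. Lpin1, a phosphatidate phosphatase and coactivator, read 11.71, 10.97 and 11.42 at 440 mg/kg and 9.69, 10.29 and 9.95 at 881 mg/kg (1.39 ± 0.28, adjusted p = 0.0426). Its mean was 11.22 with vehicle and 9.64, 9.83, 10.34, 11.37 and 9.98 from 55 to 881 mg/kg, and of the dosed groups 440 mg/kg lay nearest to vehicle. Tob2, an antiproliferative protein, differed by 1.01 ± 0.19, Slc22a8 by 0.93 ± 0.17 and Sult1c3, a sulfotransferase, by 0.77 ± 0.13. Sult1c3 read 13.08, 13.15 and 12.91 at 440 mg/kg and 12.48, 11.99 and 12.36 at 881 mg/kg. Called members of the lists outside this selection were Gclc, Cdt1 and Irs2, all lower at 440 mg/kg, and Per1 and Crym, both higher. Without 440 mg/kg replicate 1 or 3 there was 1 call, Osgin1, and without replicate 2 there were 19, while the 6 arrays of both doses alone gave 0 in limma (976 at an unadjusted p under 0.05). Without 881 mg/kg replicate 2 there were 114 calls, 29 of them among the 37. Of the 10 genes named from this comparison, Pnrc1 (-0.96, adjusted p = 0.0784) and Serpina7 (1.68, adjusted p = 0.0591) were not called then. Without 881 mg/kg replicate 3 there were 17 calls.

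Between 440 and 220 mg/kg 3 genes (0.0211%) were called, 2 higher (0.0141%) and 1 lower (0.00703%) at 440 mg/kg, with 834 at an unadjusted p under 0.05. Noct read 9.45, 8.34 and 8.50 at 440 mg/kg, against 6.53, 5.49 and 6.96 at 220 mg/kg (440 minus 220: 2.44 ± 0.39, adjusted p = 0.0305). Osgin1 was lower at 440 mg/kg, at 10.28, 10.73 and 10.90 against 11.51, 12.00 and 11.97 at 220 mg/kg (-1.19 ± 0.17, adjusted p = 0.0223). C8h11orf54 differed by 0.68 ± 0.11 (means of 10.33 at 440 mg/kg and 9.66 at 220 mg/kg, adjusted p = 0.0305), while its second probe set changed by 0.06 between 440 mg/kg and vehicle. All 3 genes met the naming rule, which asked that the arrays of the 2 doses not overlap. Osgin1 was thus the only gene called lower at 440 mg/kg against vehicle, 220 and 881 mg/kg alike, with means of 11.78 with vehicle and 11.84, 11.49, 11.83, 10.64 and 11.99 from 55 to 881 mg/kg. There were 0 calls without 440 mg/kg replicate 1 (756 at an unadjusted p under 0.05) or without 220 mg/kg replicate 2 (732), and 1 call without replicate 3 of either dose. Leaving out 220 mg/kg replicate 1 or 881 mg/kg replicate 2 gave 7. The 6 arrays of both doses alone gave 0 in limma (938 at an unadjusted p under 0.05), and a replicate block left 1.

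**Figure D5:**
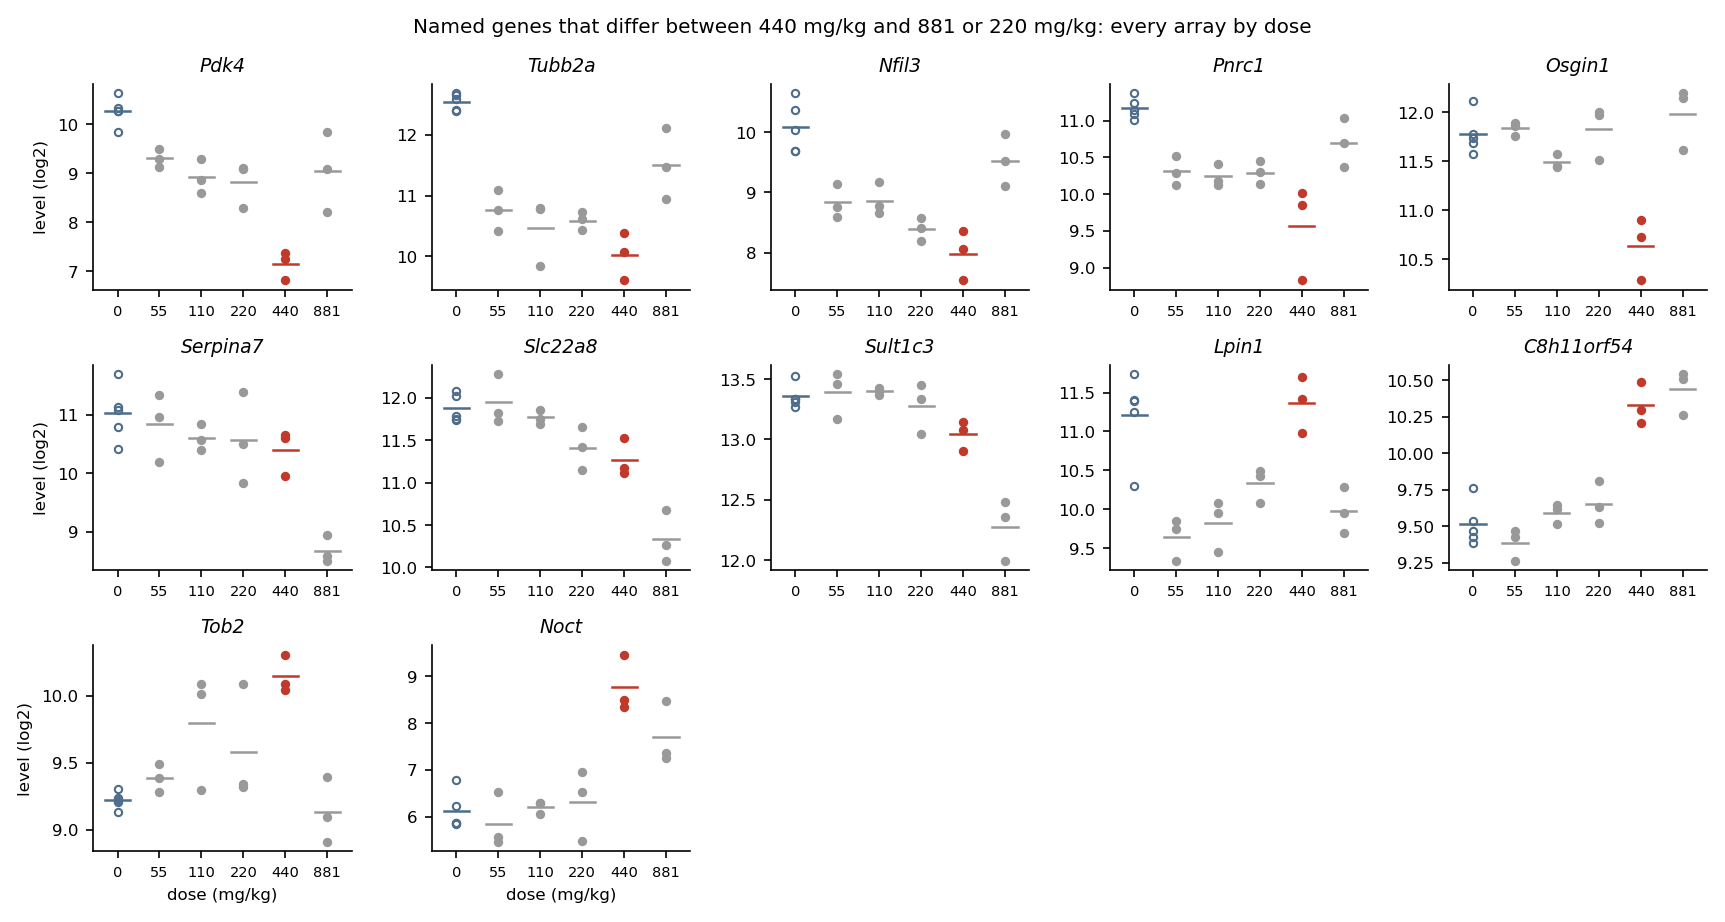
Log2 level of every array by dose (mg/kg, 0 is vehicle) for the 12 named genes called between 440 and 881 or 220 mg/kg; red points are the 440 mg/kg arrays, open points vehicle, grey points the other doses, and bars group means. Osgin1 is lowest at 440 mg/kg, Noct is highest there, and Lpin1 lies nearer to vehicle at 440 mg/kg than at the other doses.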

How the data were processed

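Values are log2 expression per probe set as deposited by the authors, who used RMA per the submitters' processing notes (version and settings not stated). RMA equalises array distributions and compresses low signals. All value columns were mapped to samples (0 unmapped). Of 31099 probe sets, 57 controls were set aside; 20826 of the other 31042 had 1 gene symbol in the platform annotation, 436 several and 9780 none, and gene tests used the first kind. Limma 3.58.1 (R 4.3.3) fitted a mean for each of 6 dose groups over all 20 arrays, which share 1 estimate of the spread. Tests were two-sided, with Benjamini-Hochberg adjustment over 14217 genes per comparison and no filter on signal or fold. The model was tested on simulated data, intervals are at the 95% level, and arrays shared at most 0.0225% of values. The number of arrays limits the precision. Python 3.11.15, pandas 2.3.3, NumPy 2.4.6 and matplotlib 3.10.9 made tables and figures.

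The members and the 32 gene lists (577 of 660 listed members measured) were chosen with earlier results of these data known. Named by rule were the 15 largest called changes in each direction without overlap between groups (uncharacterised entries, 6 of the 909 such increases and 5 of the 540 decreases, are not named), up to 4 called members of each list, up to 5 genes in each direction against 881 and 220 mg/kg, and 26 fixed genes. These make 123 genes, and any other gene was named after its values were seen. Of the 111 called, 36 had several probe sets, 0 had another called the opposite way, and 25 had another not called the same way.

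Same-numbered arrays at 440 and 881 mg/kg deviated together from their group means (r of 0.217, 0.254 and 0.260). The data and not the labels show this pairing, and the main tests did not use it. Same-numbered arrays at 440 mg/kg and vehicle (0.0599, 0.0727 and -0.116) or 220 mg/kg (0.00412, 0.312 and 0.0432) were not regarded as paired. Only the replicate block, an alternative, used the replicate number, and it did so against vehicle and 220 mg/kg as well as 881 mg/kg. Alternatives were centred arrays, 2 groups alone, leaving out single arrays, a replicate block, mean probe sets, a minimum mean of 5 and an intensity trend.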

Additional observations from a re-analysis of the deposited data

Results flagged for a closer look

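In 10 of the 123 named genes 1 of the 5 vehicle arrays lay apart from the other 4 by Dixon's criterion at the 95% level, which chance meets in about 1 of 20 groups. Vehicle replicate 1 was the highest array for Cth at 13.73 (next 13.44), Klf15 at 9.60 (next 8.91), Socs2 at 8.28 (next 7.41) and Sult1c3 at 13.53 (next 13.34). Vehicle replicate 2 was the highest for Hsd17b2 at 10.86 (next 10.45) and the lowest for Rprm at 7.47 (next 8.39). Vehicle replicate 3 was the lowest for Epcam at 8.96 (next 9.26), and vehicle replicate 4 the highest for Gsta4 at 11.53 (next 11.43). Vehicle replicate 5 was the lowest for Angptl4 at 10.87 (next 11.48) and the highest for Lyz2 at 11.44 (next 11.12). Without that array Socs2 lost its call, Sult1c3 remained not called, and the other 8 genes remained called.

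Signal was also present in data that no named gene uses. Of the 10216 probe sets without a single gene symbol 387 were called at 440 mg/kg against vehicle, 256 of them higher and 131 lower. Their largest changes on the log2 scale were 3.17 and -2.36, and 28 of them carried several symbols.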

How the results depend on the processing

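The count of 1570 genes called at 440 mg/kg against vehicle was 867 to 2000 when 1 array was left out, lowest without 440 mg/kg replicate 2 and highest without 881 mg/kg replicate 2; without 440 mg/kg replicate 3 it was 945. Under the other alternatives it was 1444 to 1905. A replicate block gave 1444, of which 1204 were among the 1570. Centring gave 1057 higher and 510 lower genes in place of 961 and 609, and moved the median of all genes to 0.022. Of the 111 named called genes 73 kept their call under every alternative tried, 38 lost it under at least 1, and 0 changed direction. Over the alternatives of these 38, adjusted p ran from 0.000111 to 0.233. Losses were most frequent without 440 mg/kg replicate 3 (31 genes), 2 (22) and 1 (13), and numbered 7 to 15 without a vehicle array, 9 with the replicate block, 8 on mean probe sets, 5 with the 2 groups alone, 2 with arrays centred, 1 with an intensity trend and 0 with the signal filter or without 881 mg/kg replicate 2. The block changed the calls of Abcg5, Abcg8, Alad, Apoa1, Asns, Hamp, Lck, Ppp1r3b and Tsku. On the mean of a gene's probe sets Klf15 changed by 0.55, Lpin2 by 0.52, Stard4 by 0.43, Pdk4 by -1.96, Per3 by 1.17, Pdgfrb by -0.37, Pnrc1 by -0.82, Sox4 by -0.23, Snx10 by 1.07, Tbx3 by -0.18, Klf9 by 0.35, Kif11 by 0.28, Kdr by -0.28, Cdh1 by 0.19, Fas by 0.30, Anxa4 by 0.24, Igf1 by -0.43 and C8h11orf54 by 0.44. With the replicate block Cyp7a1 stood at 1.14, Srebf1 at 0.04, Ddit3 at 0.04 and Lpin1 at 0.02, none of them called. Of the 12 named genes not called, Fasn and Sult1c3 were called under 2 alternatives each. Dio1 (0.0466) was -0.0069 to 0.151 and Lpin1 (0.150) -0.0789 to 0.345 without 1 array, and both changed sign without 2 of the arrays: Dio1 without 440 mg/kg replicate 2 (-0.0045) or 3 (-0.0069), Lpin1 without vehicle replicate 5 (-0.0789) or 440 mg/kg replicate 1 (-0.021).

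The 37 genes called at 440 against 881 mg/kg were 0 with the 2 groups alone, 1 to 114 without 1 array, 38 with the replicate block (28 shared) and 31 to 47 under the rest. Among the genes named there, the block ended the call of Serpina7 only. On the mean of a gene's probe sets Pdk4 (440 minus 881: -0.97, adjusted p = 0.0552) and Slc22a8 (0.77, adjusted p = 0.109) were not called. The 3 called at 440 against 220 mg/kg were 0 with the 2 groups alone, 0 to 7 without 1 array, 1 with the replicate block and 3 under the rest. On the mean of a gene's probe sets only 2 of the 3 calls were shared. C8h11orf54 was not called there (440 minus 220: 0.30, adjusted p = 0.663). The 387 unnamed probe sets were 184 to 526 without 1 array and 343 to 515 otherwise. With arrays centred Hpgds, Igf1 and Lck were not called and 1 heat shock gene, Dnajb1, was. Leaving out 881 mg/kg replicate 2, chosen for the lists after seeing the data, gave 5 Kupffer and 2 lymphocyte markers that fell and 1 heat shock gene that rose. The cause of these shifts was not tested. Groups of 3 arrays estimate the spread poorly, so small changes that missed the threshold are not shown to be absent, and RMA understates changes of dim probe sets.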
